A study of Homo sapiens with 16 samples.

Results

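The enzyme genes of serine, mitochondrial one-carbon, asparagine and proline synthesis were followed in human non-small cell lung cancer lines given a pair of inhibitors. The 10 genes, chosen by name among the 28951 listed genes, were PHGDH, PSAT1, PSPH, SHMT2, MTHFD2, MTHFD1L, ALDH1L2, ASNS, PYCR1 and ALDH18A1. Each symbol matched 1 gene identifier, and all 10 passed the filter on low values. Total RNA was sequenced from 4 lines. H460 and H1703 are called responsive by the submitters, and HCC827 and H441 are called non-responsive. In each line the combination (Combo) was 5 µM MYCi975, which inhibits MYC (a transcription factor), with 25 µM TMP195, an inhibitor of class IIa histone deacetylases, and Vehicle was DMSO. Both lasted 48 h, were started 1 day after plating in RPMI with 10% fetal bovine serum, and gave 2 libraries per line and treatment, 16 in all. H460 came from a large cell carcinoma and HCC827 and H441 from adenocarcinomas, and all 4 are established lines. The 2 inhibitors given alone were not analysed here. Nothing in the labels assigns the 2 libraries of a group to different cultures, so p-values measure the spread between these libraries, which may be technical.

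As background, cells make serine from a glycolytic intermediate through PHGDH, PSAT1 and PSPH, in that order. In mitochondria SHMT2 splits serine to glycine and passes the carbon released to folate. MTHFD2 oxidises that unit, and MTHFD1L releases it as formate, which leaves for nucleotide synthesis in the cytosol. ALDH1L2 instead burns the unit to carbon dioxide. ASNS makes asparagine from aspartate, and ALDH18A1 followed by PYCR1 makes proline from glutamate. Many of these genes are known targets of ATF4, the transcription factor that is translated more when amino acids are short or mitochondria are stressed, and several are also known MYC targets. ATF4 with a C/EBP partner binds a composite element whose core is TGATGNAA, and MYC with MAX binds the E-box CACGTG.

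Promoter windows from RefSeq (GRCh38.p14), 250 bases before to 50 after a transcription start, were found for 6 of the 10 genes (PHGDH, PSAT1, MTHFD2, MTHFD1L, ASNS and ALDH18A1) in 10 windows. Both motifs were searched on both strands; they share no letters in these windows. TGATGNAA was found for ASNS and MTHFD1L, and among all 35116 windows of the same length 3.62% hold it. CACGTG was found for MTHFD1L and ALDH18A1, and 7.26% of all windows hold it. Both shares are per window. A gene with several windows had more chances of a match, so the counts of genes do not compare directly with them. The 3 windows below are shown because they hold the motif of one or the other factor, with the motifs in capitals. Another ASNS window and another MTHFD1L window hold neither motif, and none was found for PHGDH, PSAT1 or MTHFD2. Further MTHFD1L windows overlap the one shown, and place the same copies at -90 or 25 (TGATGCAA) and at -115 or -1 (CACGTG). Whether either motif has a part in the mRNA changes was not tested. In ASNS (chr7:97872359-97872658, minus strand) the TGATGAAA starts at position -68 from the start. In MTHFD1L (chr6:150866236-150866535, plus strand) CACGTG starts at -154 and TGATGCAA at -129. In ALDH18A1 (chr10:95656662-95656961, minus strand) CACGTG starts at -136. A match describes the letters of the window and is not a measured binding site.
ASNS: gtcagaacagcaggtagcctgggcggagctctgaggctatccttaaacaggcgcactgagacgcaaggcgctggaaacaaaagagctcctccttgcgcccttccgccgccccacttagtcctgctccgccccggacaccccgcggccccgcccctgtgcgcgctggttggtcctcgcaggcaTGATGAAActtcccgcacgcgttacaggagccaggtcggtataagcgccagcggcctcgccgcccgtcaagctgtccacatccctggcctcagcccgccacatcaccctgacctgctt
MTHFD1L: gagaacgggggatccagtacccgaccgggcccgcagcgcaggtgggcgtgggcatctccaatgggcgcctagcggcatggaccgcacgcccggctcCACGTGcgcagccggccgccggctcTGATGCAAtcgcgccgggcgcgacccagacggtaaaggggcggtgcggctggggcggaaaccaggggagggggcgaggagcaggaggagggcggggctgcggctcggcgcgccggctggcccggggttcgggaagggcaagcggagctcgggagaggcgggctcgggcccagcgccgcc
ALDH18A1: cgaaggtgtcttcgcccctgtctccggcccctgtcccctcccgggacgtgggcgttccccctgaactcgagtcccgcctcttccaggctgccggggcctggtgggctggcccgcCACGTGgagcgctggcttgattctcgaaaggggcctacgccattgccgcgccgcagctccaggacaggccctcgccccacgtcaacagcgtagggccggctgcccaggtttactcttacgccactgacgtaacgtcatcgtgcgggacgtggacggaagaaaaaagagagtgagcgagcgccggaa

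The libraries held 8493271 to 13604150 reads in the listed genes. Values are given as normalised reads, the read number recovered from the deposited log2-scale value and divided by the library's size factor. Changes are Combo minus Vehicle on the deposited log2 scale ± SE. For low genes their antilog can differ from the ratio of normalised reads in either direction: for ASNS it was 5.43 against a ratio of 7.82 in HCC827, and 4.61 against 4.40 in H460. The epithelial marker list (6 of 6 genes listed) summed to 27747 to 36456 normalised reads in H460, 232 to 265 in H1703, 47158 to 56004 in HCC827 and 88114 to 101128 in H441. H1703 thus showed very little epithelial keratin and adhesion mRNA. The H460 sum came almost wholly from the keratins KRT8, KRT18 and KRT19. Adhesion mRNA was very low in H460 too, with EPCAM at 3.77 in Combo and 6.98 in Vehicle, and CDH1 at 0 and 0.436. The leukocyte list (2 of 4 genes listed) summed to at most 20.5 and the endothelial list (2 of 3) to at most 11.1. MALAT1, a nuclear RNA, was 1.21 to 1.35% of reads in H460 Combo and 0.160 to 0.192% in H460 Vehicle, and 1.89 to 2.30% in H1703 Combo and 0.449 to 0.499% in H1703 Vehicle. It was 0.773 to 0.793% in HCC827 Combo and 0.402 to 0.504% in HCC827 Vehicle, and 1.06 to 1.14% in H441 Combo and 0.789 to 0.923% in H441 Vehicle. Its part in the results was not tested. In such bulk libraries fewer cells of a kind and less RNA per cell cannot be told apart.

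The combination moved most of the 10 mRNAs upward in H460, HCC827 and H441, and split them in H1703. In H460 9 of 10 rose and 1 did not pass the test, with a median change of 1.31 (limma, adjusted p under 0.05 over all genes tested). In the same comparison 26.7% of all tested genes passed in either direction, 14.1% rose and 12.6% fell, and the median over all genes was 0.05. In H1703 4 rose and 3 fell, against 35.5% of all genes in either direction, 17.9% higher and 17.6% lower; the median of the 10 was -0.09 and that of all genes 0.08. In HCC827 7 of 10 rose and none fell, against 9.92% of all genes in either direction, 4.42% higher and 5.5% lower, with a median of 0.98 for the 10 and 0 for all genes. In H441, where PHGDH was at the floor and was not counted, 6 of 9 rose and none fell, against 4.63% of all genes in either direction, 2.77% higher and 1.86% lower, with a median of 0.42 for the 9. The H441 count was 3 without any 1 of the H441 libraries, 1 with neither trend nor robust settings in limma, and 0 when only the H441 libraries were fitted. Over the mean of the 4 lines 7 of 9 rose, against 35.2% of all genes in either direction and 18.4% higher.

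Scaling mattered for small changes. With each library centred on its median, every change moved by -0.19 (H460), -0.24 (H1703), -0.03 (HCC827) and 0.01 (H441). Among genes past the test, the share with a rise was 52.7% as deposited and 32.6% centred in H460, 50.4% and 31.1% in H1703, 44.6% and 39.3% in HCC827, and 59.9% and 64.1% in H441. Over the mean of the 4 lines every change moved by -0.11, and the share that were higher was 52.4% as deposited and 34.6% centred. With centring 9 of the 10 still passed in H460 and 7 in HCC827, all higher, but in H1703 2 were higher and 6 lower, where 4 and 3 passed as deposited.

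**Figure D1:**
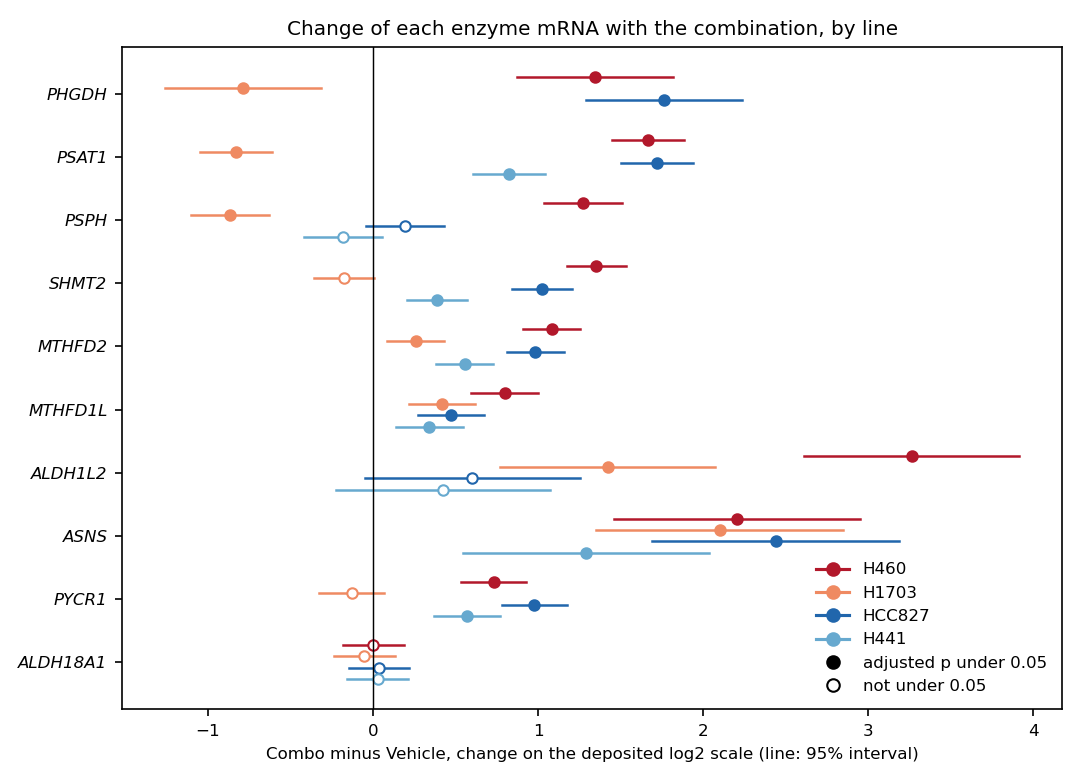
Change of each mRNA (Combo minus Vehicle, deposited log2 scale, x axis) for the 10 genes (y axis) in 4 lines by colour, with 95% intervals from limma; filled points have an adjusted p under 0.05. The first 3 genes lie right of 0 in H460 and left of 0 in H1703, ASNS lies right of 0 in every line, and ALDH18A1 lies at 0. PHGDH in H441 is not drawn because it was at the floor.

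The serine pathway genes gave opposite changes in the 2 lines called responsive. PHGDH encodes the first and committed enzyme, phosphoglycerate dehydrogenase. It had 1379 and 1366 normalised reads in H460 Combo, against 520.4 and 557 in H460 Vehicle. In HCC827 it had 923 and 973 in Combo, against 276 and 279 in Vehicle. In H1703 it had 650.1 and 728 in Combo, against 1249 and 1134 in Vehicle. So both Combo libraries lay above both Vehicle libraries in H460 and HCC827, and below them in H1703. PHGDH rose by 1.35 ± 0.23 in H460 (limma adjusted p = 0.000118) and by 1.76 ± 0.23 in HCC827 (adjusted p = 3.46e-05), and fell in H1703 (-0.79 ± 0.23, adjusted p = 0.00965). The fall in H1703 no longer passed without H1703 Combo 1 (-0.71, adjusted p = 0.0853), without H1703 Vehicle 1 (-0.72, adjusted p = 0.0798) with quantile normalisation (-0.62, adjusted p = 0.100) or with neither trend nor robust settings. H441 had 0 and 1 PHGDH reads in Combo and 0 reads in both Vehicle libraries, and no change is given there. These libraries stayed in the single fit, so their spread enters the SE of 0.23 in every line. On the deposited scale the H441 Combo libraries read 0.48 and 1.61, the widest gap within a group for PHGDH. The H1703 libraries read 9.35 and 9.51 in Combo, and 10.29 and 10.15 in Vehicle.

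PSAT1, the aminotransferase of the second step, changed most clearly of the 3. It had 4066 and 4389 normalised reads in H460 Combo, against 1403 and 1262 in H460 Vehicle, a rise of 1.66 ± 0.10 or 3.17-fold (limma adjusted p = 2.83e-10). In HCC827 it had 3316 and 3102 in Combo, against 1077 and 874 in Vehicle, a rise of 1.72 ± 0.10 (adjusted p = 3.16e-09). In H441 it had 873 and 836 in Combo, against 508 and 458 in Vehicle, a smaller rise of 0.82 ± 0.10 (adjusted p = 1e-04). H1703 went the other way. There PSAT1 had 1122 and 1374 in Combo, against 2174 and 2245 in Vehicle, a fall to 0.562 of the Vehicle level (-0.83 ± 0.10, adjusted p = 2.45e-06). H441 thus raised PSAT1 with no PHGDH mRNA above 1 read in any of its libraries. None of the other calls for PSAT1 in the lines was lost under any alternative; in H441 it was lost when only the H441 libraries were fitted (adjusted p = 0.0906).

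PSPH encodes the phosphatase that releases serine. It rose in H460, with 292 and 347 normalised reads in Combo against 122 and 138 in Vehicle (1.27 ± 0.11, limma adjusted p = 3.49e-08). It fell in H1703, with 339.8 and 336 in Combo against 609 and 626 in Vehicle (-0.87 ± 0.11, adjusted p = 3.87e-06). It did not pass in HCC827, with 2229 and 2046 in Combo against 1810.5 and 1921 in Vehicle (0.20, interval -0.04 to 0.43, adjusted p = 0.339). Nor did it pass in H441, with 195 and 221 in Combo against 219 and 254 in Vehicle (-0.18, interval -0.42 to 0.06). HCC827, which raised PHGDH and PSAT1 about as much as H460 did, therefore gave a PSPH change 1.08 smaller than that of H460 (adjusted p = 9e-05 for the difference, a comparison added after the data were seen).

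**Figure D2:**
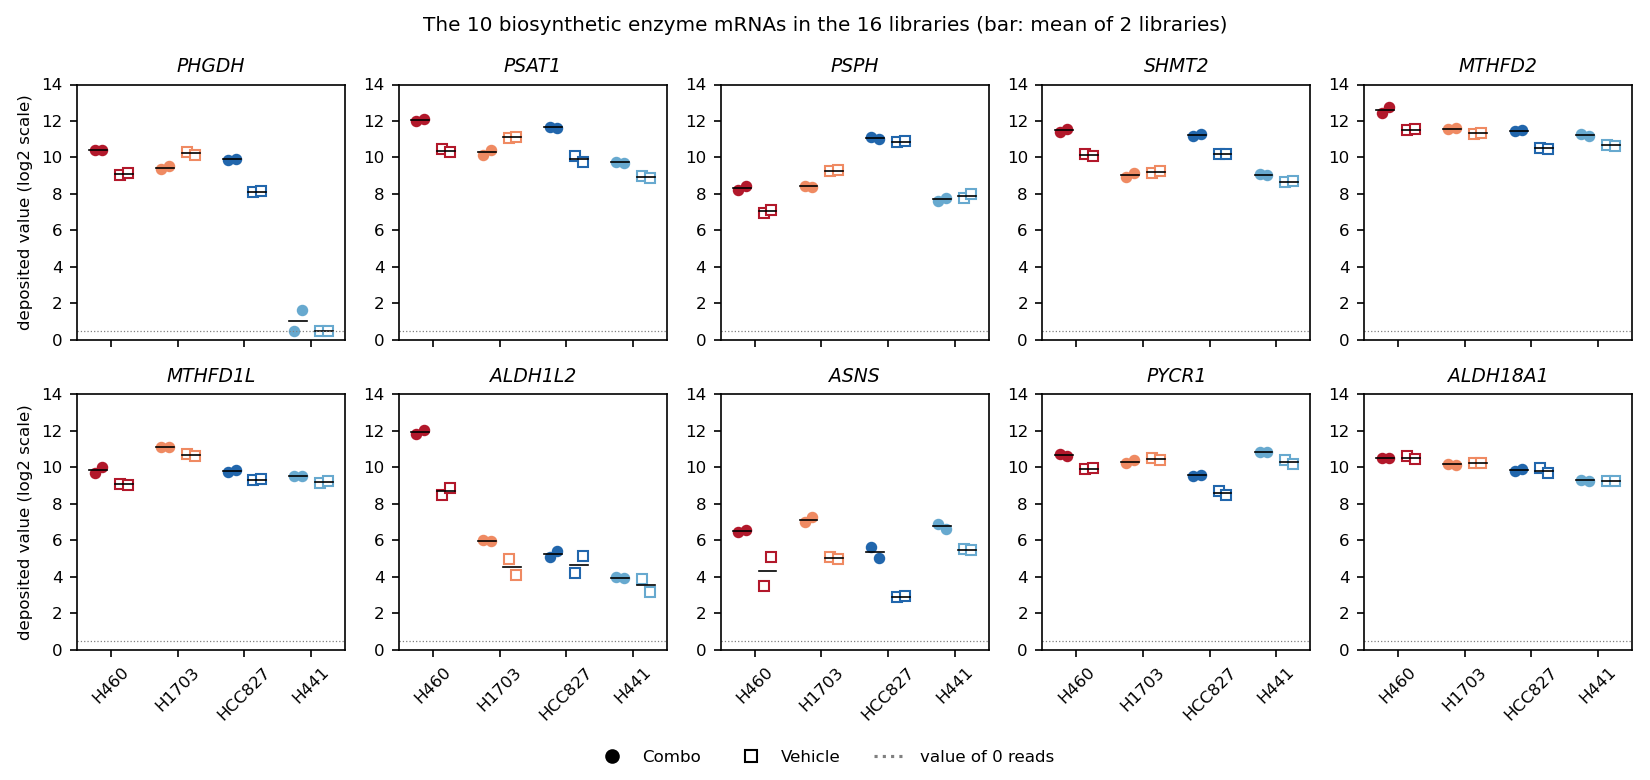
Deposited values (log2 scale, y axis) of the 10 genes in every library, by line (x axis), Combo as filled circles left of Vehicle as open squares; black bars are means of 2 libraries and the dotted line is the value of 0 reads. PHGDH, PSAT1 and PSPH sit higher in Combo than in Vehicle in H460 and lower in H1703, PHGDH in H441 sits at or next to the value of 0 reads, and ALDH1L2 in H460 stands far above every other line.

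Of the 4 mitochondrial folate genes, all 4 rose in H460, while SHMT2, MTHFD2 and MTHFD1L but not ALDH1L2 passed in HCC827 and H441. In H1703 MTHFD2, MTHFD1L and ALDH1L2 rose on the deposited scale, the first 2 not with median centring, and SHMT2 did not pass. SHMT2, which encodes mitochondrial serine hydroxymethyltransferase, had 2725.5 and 3029 normalised reads in H460 Combo, against 1146.5 and 1098 in H460 Vehicle. In HCC827 it had 2286 and 2466 in Combo, against 1188 and 1144 in Vehicle. In H441 it had 537 and 517.5 in Combo, against 394 and 411 in Vehicle. The rises were 1.35 ± 0.09 in H460 (limma adjusted p = 3.88e-10), 1.02 ± 0.09 in HCC827 (adjusted p = 2.2e-07) and 0.39 ± 0.09 in H441 (adjusted p = 0.0126). In H1703 SHMT2 had 491 and 555 in Combo, against 574 and 606 in Vehicle, and did not pass (-0.17, interval -0.36 to 0.01). With median centring this became a call (-0.42, adjusted p = 0.0015), and in H441 the call was lost without any 1 of the 4 H441 libraries (adjusted p = 0.0569 to 0.113).

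MTHFD2, which encodes the mitochondrial methylenetetrahydrofolate dehydrogenase of proliferating cells, had 5593 and 6960.4 normalised reads in H460 Combo, against 2875 and 3011 in H460 Vehicle. It had 2804 and 2887.5 in HCC827 Combo, against 1457 and 1422 in HCC827 Vehicle, and 2485 and 2297 in H441 Combo, against 1647 and 1602 in H441 Vehicle. It rose by 1.08 ± 0.08 in H460 (limma adjusted p = 4.19e-09), by 0.98 ± 0.08 in HCC827 (adjusted p = 1.93e-07) and by 0.56 ± 0.08 in H441 (adjusted p = 0.000432). In H1703 it had 3040.5 and 3102 in Combo, against 2501 and 2628 in Vehicle, and the rise of 0.26 ± 0.08 (adjusted p = 0.0179) depended on the scaling, since centring left 0.02 (adjusted p = 0.904). It was also lost without H1703 Combo 1 (adjusted p = 0.0592), H1703 Combo 2 (0.0859) or H1703 Vehicle 1 (0.127), or with neither trend nor robust settings.

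MTHFD1L, the mitochondrial formate-releasing synthetase, rose in all 4 lines by modest amounts. It had 831 and 1032 normalised reads in H460 Combo, against 549 and 515 in H460 Vehicle, and 2181 and 2236 in H1703 Combo, against 1718 and 1586 in H1703 Vehicle. It had 849 and 932 in HCC827 Combo, against 630.2 and 649 in HCC827 Vehicle, and 742 and 747 in H441 Combo, against 571 and 603 in H441 Vehicle. The changes were 0.80 ± 0.10 in H460 (limma adjusted p = 2.12e-06), 0.42 ± 0.10 in H1703 (adjusted p = 0.00168), 0.47 ± 0.10 in HCC827 (adjusted p = 0.0029) and 0.34 ± 0.10 in H441 (adjusted p = 0.0466). The H1703 call was lost with centring (0.18, adjusted p = 0.216), the HCC827 call without HCC827 Combo 2 (adjusted p = 0.0589) or with neither trend nor robust settings, and the H441 call in 21 of 24 alternatives (adjusted p up to 0.250, without H441 Vehicle 1). MTHFD1L was the only serine or one-carbon gene of the 10 other than MTHFD2 and ALDH1L2 that passed upward in H1703.

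ALDH1L2 encodes the mitochondrial enzyme that oxidises formyl-folate and makes NADPH. It gave the steepest change of the 10 in H460, with 3687 and 4256 normalised reads in Combo against 357 and 469.6 in Vehicle, 9.61-fold (3.27 ± 0.31, limma adjusted p = 9.3e-08). In H1703 it rose at a far lower level, with 61.0 and 59.9 in Combo against 29.2 and 14.7 in Vehicle (1.42 ± 0.31, adjusted p = 0.00112). In HCC827 it had 31.8 and 40.6 in Combo against 15.8 and 32.4 in Vehicle (0.60, interval -0.05 to 1.25), and in H441 13.1 and 12.7 in Combo against 12.1 and 6.5 in Vehicle (0.42, interval -0.23 to 1.08). Neither of these passed, and at these read numbers a change inside the intervals was not detectable. Combo H460 cells thus held more ALDH1L2 mRNA than any other group by a wide margin, 467 normalised reads per kb of exon, against 48.6 in H460 Vehicle.

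ASNS, asparagine synthetase, rose in all 4 lines and had the largest change of the 10 over the mean of the lines (2.01 ± 0.18), on few reads. It had 83.6 and 93.5 normalised reads in H460 Combo, against 8.8 and 31.5 in H460 Vehicle. It had 125 and 150.5 in H1703 Combo, against 31.2 and 28.7 in H1703 Vehicle. It had 47.1 and 30.4 in HCC827 Combo, against 4.8 and 5.1 in HCC827 Vehicle, and 118 and 97.1 in H441 Combo, against 43.1 and 41.2 in H441 Vehicle. Both Combo libraries lay above both Vehicle libraries in each line. The rises were 2.21 ± 0.36 in H460 (limma adjusted p = 7.83e-05), 2.10 ± 0.36 in H1703 (adjusted p = 9.17e-05), 2.44 ± 0.36 in HCC827 (adjusted p = 0.000139) and 1.29 ± 0.36 in H441 (adjusted p = 0.0434). H1703 therefore raised ASNS while it lowered PHGDH, PSAT1 and PSPH.

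The ASNS values rest on 975 reads over the 16 libraries. The SE of 0.36 is shared by the 4 lines. The widest gap within a group was in H460 Vehicle, at 3.51 and 5.10 on the deposited scale. In H441 the libraries read 6.91 and 6.64 in Combo, and 5.52 and 5.46 in Vehicle. The 2 H460 Vehicle libraries set the size in that line, since the change was 1.42 without H460 Vehicle 1 and 2.997 without H460 Vehicle 2, with a call either way. The H460 call was lost when only the H460 libraries were fitted (adjusted p = 0.0692). The H441 call was lost in 14 of 24 alternatives, with an adjusted p up to 0.226 without H441 Combo 1. In the annotation used here ASNS shares 44.6% of its exon bases with AC079781.5 on the same strand, and whether reads in shared bases were left out of both genes was not tested. The pseudogene ASNSP1 had 145 reads in H1703 Combo and 30 in H1703 Vehicle, and 7 in all the other groups together.

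Proline synthesis split between its first and last enzyme. PYCR1, the mitochondrial reductase of the last step, had 1698 and 1556.5 normalised reads in H460 Combo, against 956 and 1001 in H460 Vehicle. It had 730.5 and 769 in HCC827 Combo, against 409.6 and 351 in HCC827 Vehicle, and 1861 and 1838 in H441 Combo, against 1339.6 and 1158 in H441 Vehicle. It rose by 0.73 ± 0.09 in H460 (limma adjusted p = 5.15e-06), by 0.98 ± 0.09 in HCC827 (adjusted p = 1.11e-06) and by 0.57 ± 0.09 in H441 (adjusted p = 0.00113). In H1703 it had 1207 and 1347 in Combo, against 1437.5 and 1354 in Vehicle, and did not pass (-0.13, interval -0.33 to 0.07), but fell with centring (-0.37, adjusted p = 0.00682). ALDH18A1, the synthase of the first steps from glutamate, passed in no line. It had 1478.5 and 1487 in H460 Combo, against 1549.5 and 1416 in H460 Vehicle, and its change was 0.00 with an interval of -0.18 to 0.19. The intervals in the other lines were -0.24 to 0.13 in H1703, -0.15 to 0.22 in HCC827 and -0.15 to 0.21 in H441, so no interval reached beyond 0.24 below or 0.22 above 0. Centring alone brought it to a call, lower in H1703 (-0.29, adjusted p = 0.0294).

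Overlapping genes limit a few of these values, because the sources used here do not give the strand setting of the counting, although the library kit keeps strand. MTHFD2 shares 27.2% of its exon bases with SLC4A5 and 6.06% with AC006030.1, both on the opposite strand. AC006030.1 had 33.8% as many reads as MTHFD2 and changed alongside it (H460 1.06, H1703 0.26, HCC827 1.02, H441 0.66). SLC4A5 had 2.96% as many reads and changed by 1.42 (H460), -0.10 (H1703), 1.04 (HCC827) and 0.21 (H441). PYCR1 shares 15.6% with AC145207.4 on the opposite strand, which had 10.8% as many reads, and 14.1% with MYADML2 on its own strand, which had 18 reads in all. AC145207.4 changed alongside PYCR1, by 0.87 (H460), -0.19 (H1703), 1.08 (HCC827) and 0.59 (H441). SHMT2 shares 8.83% with AC137834.2, which had 3.09% as many reads, and 0.682% with NDUFA4L2, which had 3.85% as many, both on the opposite strand. AC137834.2 changed by 1.40 (H460), -0.41 (H1703), 1.39 (HCC827) and -0.54 (H441), and NDUFA4L2 by 2.92, -0.55, 2.89 and 0.36 in the same order. ALDH1L2 shares 1.70% with NOPCHAP1 on the opposite strand. NOPCHAP1 had 91.9% as many reads as ALDH1L2 over the 16 libraries, 330 to 773 in each, and changed by 0.30 (H460), 0.64 (H1703), 0.06 (HCC827) and 0.03 (H441). Its part in the low ALDH1L2 values outside H460 was not tested. For PHGDH, PSAT1, PSPH, MTHFD1L and ALDH18A1 no shared exon bases were found.

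The test of the difference between lines asked whether these enzymes separated the responsive from the non-responsive pair. Of 9 genes counted, 1 was higher and 2 were lower in the responsive minus non-responsive difference, against 23.3% of all genes in either direction, 11.2% higher and 12.1% lower. ALDH1L2 changed by 1.83 more in the responsive lines (limma adjusted p = 0.000181). PSAT1 (-0.85, adjusted p = 4.3e-06) and PYCR1 (-0.47, adjusted p = 0.000872) changed by less there. These class means hide the split inside the responsive pair. The H460 change exceeded the H1703 change for 7 of 10 genes and for none the reverse, against 19.1% of all genes in either direction and 11.3% higher. The differences were 2.495 for PSAT1 (interval 2.19 to 2.80, adjusted p = 6.23e-10), 2.14 for PSPH, 2.13 for PHGDH, 1.84 for ALDH1L2, 1.53 for SHMT2, 0.86 for PYCR1 and 0.82 for MTHFD2. ASNS did not pass in that comparison (0.10, interval -0.95 to 1.16), nor did ALDH18A1 (0.05, interval -0.21 to 0.31) or MTHFD1L (0.38, adjusted p = 0.0585).

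H1703 also differed from both non-responsive lines. Against HCC827 its change was lower for 6 of 10 genes and higher for none, where 20.6% of all genes passed in either direction and 11.6% were lower. Against H441 it was lower for 4 of 9 genes, where 22.9% of all genes passed and 12.9% were lower. H460 and HCC827 differed for 2 of 10, PSPH and ALDH1L2, where 14% of all genes passed and 7.23% were higher. H460 exceeded H441 for 6 of 9 genes, where 15.8% passed and 7.79% were higher. HCC827 exceeded H441 for PSAT1 (0.90) and SHMT2 (0.64), where 2.01% passed and 0.697% were higher. The SHMT2 difference between HCC827 and H441 was lost without HCC827 Combo 2. The comparisons of H1703 with HCC827 and H441, and of H460 with HCC827 and H441, were added after the data were seen, and comparisons with a line in common share its libraries.

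**Figure D3:**
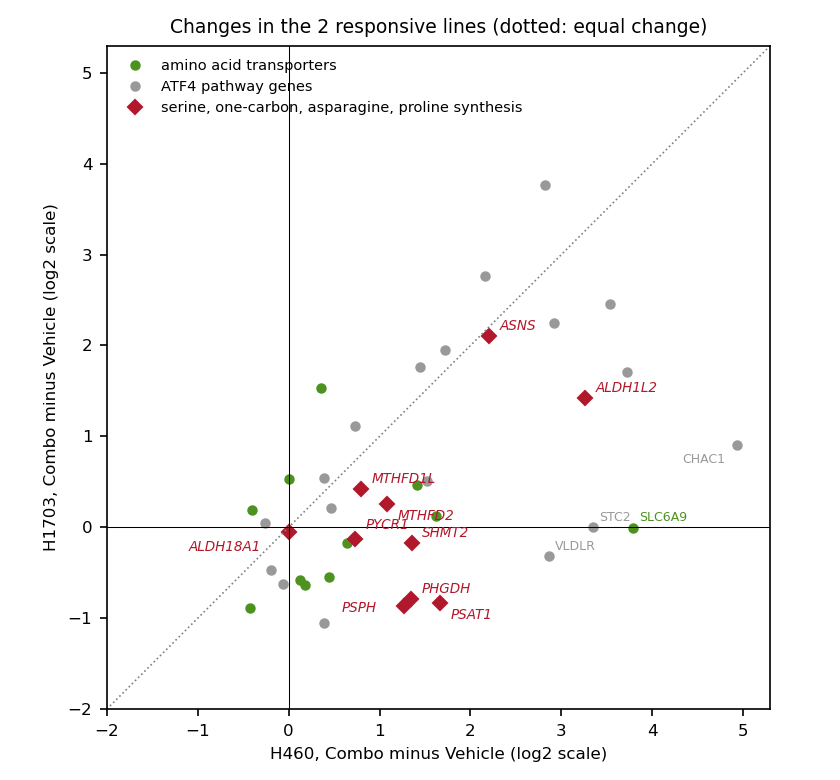
Change in H460 (x axis) against change in H1703 (y axis), both Combo minus Vehicle on the deposited log2 scale, for the 10 genes (red diamonds), 11 amino acid transporters (green) and 18 ATF4 pathway genes (grey); the dotted line marks equal change. PSAT1, PHGDH and PSPH lie in the lower right, ASNS lies on the line, and SLC6A9, STC2 and VLDLR lie far to the right beside 0 for H1703 (STC2 had 0 reads there).

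Several of these enzymes have a partner in the cytosol or a close relative, and the partners moved differently. SHMT1, the cytosolic form of SHMT2, fell by 0.65 ± 0.08 over the mean of the 4 lines, and MTHFD1, the cytosolic trifunctional folate enzyme, by 0.50 ± 0.03. Neither passed in H441 (0.14 and -0.01), and SHMT1 did not pass in HCC827 (-0.38). The SHMT2 minus SHMT1 difference rose by 2.57 (H460), 0.96 (H1703), 1.41 (HCC827) and 0.25 (H441), 1.295 on average (exact two-sided permutation test within lines, p = 0.00154, adjusted p = 0.00309 over 4 pairs). The MTHFD1L minus MTHFD1 difference rose by 1.56 (H460), 1.304 (H1703), 0.82 (HCC827) and 0.36 (H441), 1.01 on average (exact permutation p = 0.00154, adjusted p = 0.00309). This is the smallest p that the test can give with 2 libraries per group in 4 lines. MTHFD2 minus MTHFD2L rose by 0.53 on average, in 3 of 4 lines (exact permutation adjusted p = 0.0144), with -0.11 in H1703. A shift of a whole library leaves these differences as they are. The pair ALDH1L2 and ALDH1L1 was not tested, because ALDH1L1 had 12 reads in all libraries together.

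**Figure D4:**
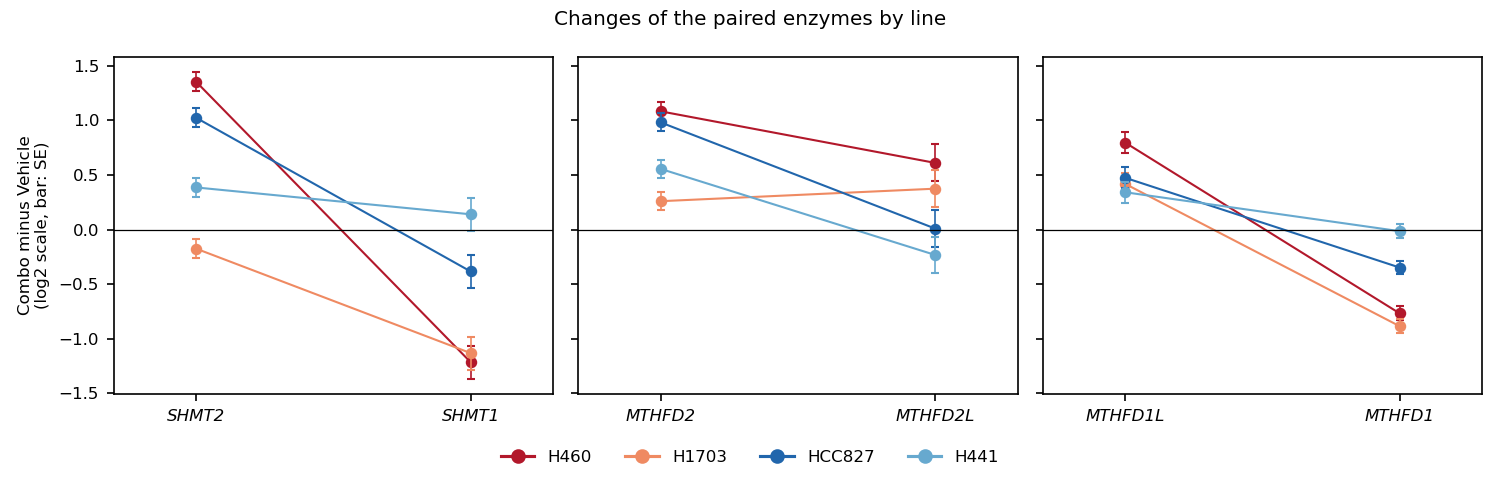
Change with the combination (Combo minus Vehicle, log2 scale, y axis, bars are SE) of each enzyme (left in each panel) and its partner (right), with 1 line per cell line. SHMT2 and MTHFD1L lie above their cytosolic partners SHMT1 and MTHFD1 in all 4 lines; MTHFD2 lies above MTHFD2L in 3 of 4.

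Around the 10 genes, the other genes of the pathway that passed moved in both directions. The counts of these and the following lists stand against 14.1% of all genes higher and 12.6% lower in H460, 17.9% and 17.6% in H1703, 4.42% and 5.5% in HCC827, and 2.77% and 1.86% in H441. Among 13 other folate genes tested, 3 rose and 5 fell in H460, none rose and 5 fell in H1703, 2 rose and 4 fell in HCC827, and none passed in H441. TYMS, thymidylate synthase, fell by 1.56 ± 0.05 over the mean of the 4 lines, with changes of -1.97 (H460), -3.06 (H1703), -1.13 (HCC827) and -0.06 (H441), the last not passing. GGH, which trims folate polyglutamates, fell by 0.67 ± 0.05 over the same mean, but changed by 0.19 in H441, where it did not pass. Of 11 other serine and glycine genes, 3 rose and 3 fell in H460, 1 rose and 4 fell in H1703, and none passed in HCC827 or H441. SFXN1, the mitochondrial serine carrier, fell by 0.49 ± 0.05, and SDSL, a relative of serine dehydratase, rose by 0.85 ± 0.16.

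In the methionine and transsulfuration list, of 11 tested, 2 rose and 3 fell in H460, 1 rose and 3 fell in H1703, 2 rose in HCC827 and 1 rose in H441. CBS and CTH, which turn homocysteine and serine into cysteine, rose by 0.99 ± 0.12 and 1.00 ± 0.09 over the mean of the 4 lines, while MAT2A, which makes S-adenosylmethionine, fell by 0.35 ± 0.06. H1703 was the only line in which MAT2A passed (-0.77). CTH changed by 1.43 in H460, 1.48 in HCC827 and 0.86 in H441, and by 0.23 in H1703, where it did not pass. Of 12 aspartate and glutamate genes, 3 rose and 2 fell in H460, 3 rose and 3 fell in H1703, 2 rose and 1 fell in HCC827, and 3 rose in H441. GPT2, mitochondrial alanine transaminase, rose by 0.89 ± 0.06, and ASS1, which condenses citrulline with aspartate, by 0.70 ± 0.15, while ASRGL1, an asparaginase, fell by 0.74 ± 0.13. These means include a change of exactly 0 for ASS1 in H1703 and for ASRGL1 in H441, so they rest on the other lines. In the proline and ornithine list of 9, 1 rose and 1 fell in H460, 1 rose and 5 fell in H1703, 2 rose and 1 fell in HCC827, and none passed in H441. There OAT, ornithine aminotransferase, fell by 0.75 ± 0.05 and PYCR3 by 0.55 ± 0.16 over the mean of the 4 lines. PYCR3 passed in H1703 alone (-1.43).

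ATF4 mRNA itself rose in each line, with changes of 0.73 (H460), 1.12 (H1703), 0.56 (HCC827) and 0.48 (H441). Of the 18 ATF4 pathway genes, 15 rose and 1 fell in H460, 10 rose and 3 fell in H1703, 12 rose in HCC827 and 9 rose in H441. Over all genes 14.1% rose and 12.6% fell in H460, 17.9% and 17.6% in H1703, 4.42% and 5.5% in HCC827, and 2.77% and 1.86% in H441. The median change of the 18 was 1.62 (H460), 0.73 (H1703), 1.34 (HCC827) and 0.43 (H441), against medians over all genes of 0.05, 0.08, 0 and 0. CHAC1, a glutathione-degrading enzyme, rose by 2.25 ± 0.20 over the mean of the 4 lines, PPP1R15A, which directs a phosphatase to eIF2 alpha, by 2.23 ± 0.10, and SESN2, a leucine sensor of the mTORC1 pathway, by 2.00 ± 0.09. PPP1R15A changed by 3.77 in H1703 and 2.82 in H460, so H1703 did not lack changes in this list. CHAC1 changed by 4.93 in H460 and 2.80 in HCC827, but did not pass in H1703 (0.91) or H441 (0.37).

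Of 11 amino acid transporters tested, 6 rose in H460, 8 in HCC827 and 6 in H441, with none lower, while in H1703 1 rose and 4 fell. The shares of all genes that rose were 14.1% in H460, 4.42% in HCC827 and 2.77% in H441, and in H1703 17.9% rose and 17.6% fell. The median change of the 11 was 0.36 (H460), 0.00 (H1703), 1.29 (HCC827) and 0.44 (H441). SLC1A5 and SLC7A11 in H460 and SLC38A2 in HCC827 and H441 were among those that did not pass. SLC6A9, the glycine transporter GLYT1, had 147 ± 3 normalised reads in H460 Combo and 9.8 ± 8.3 in H460 Vehicle (SD, n = 2 each), but 117 ± 4 in H1703 Combo and 117.5 ± 8.7 in H1703 Vehicle. It changed by 1.83 in HCC827, and by 0.08 in H441, where it did not pass either. SLC1A4, a neutral amino acid exchanger that carries serine, changed by 1.63 (H460), 0.13 (H1703), 1.40 (HCC827) and 0.49 (H441). SLC3A2, the heavy chain of several exchangers, was the 1 that rose in H1703, by 1.53.

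The Vehicle libraries, taken after 48 h in DMSO, show how the lines differed without the inhibitors. PHGDH held 539 ± 26 normalised reads in H460, 1191 ± 81 in H1703 and 277 ± 1.5 in HCC827 (SD, n = 2 each). Set against a floor of 3 reads over the 2 H441 libraries together, PHGDH was at least 329-fold higher in H460, 720-fold higher in H1703 and 169-fold higher in HCC827 than in H441. PSAT1 was likewise highest in H1703 (2209 ± 50), then H460 (1332 ± 100), HCC827 (976 ± 144) and H441 (483 ± 35), with each neighbour differing (limma adjusted p at most 0.00108). H1703 thus had the most PHGDH and PSAT1 mRNA of the 4 in Vehicle and was the line in which both fell. The same H1703 Vehicle libraries enter both statements, so they are not independent. In the Vehicle difference of the line classes 7 of 9 were higher and 1 lower in the responsive lines, but 56.3% of all genes passed in that comparison, 28.8% higher and 27.6% lower.

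The other genes each had their own order in Vehicle. Pairs of lines in Vehicle differ widely: 46.4% of all genes passed between H460 and H1703, 50.3% between H460 and HCC827, 54.2% between H460 and H441, 50.7% between H1703 and HCC827, 52.1% between H1703 and H441 and 44.7% between HCC827 and H441. SHMT2 was highest in HCC827 (1166 ± 31) and H460 (1122 ± 34), which could not be separated by the test, and lower in H1703 (590 ± 23) and H441 (403 ± 12). MTHFD2 ran H460 (2943 ± 96), H1703 (2564 ± 90), H441 (1624 ± 32) and HCC827 (1439 ± 25), and neither H460 and H1703 nor H441 and HCC827 could be separated. MTHFD1L was highest in H1703 (1652 ± 93), followed by HCC827 (640 ± 13), H441 (587 ± 23) and H460 (532 ± 24), of which neighbours could not be separated. ALDH1L2 was 413 ± 80 in H460, 24.1 ± 11.8 in HCC827, 22.0 ± 10.3 in H1703 and 9.3 ± 4.0 in H441, and HCC827 and H1703 could not be separated. ASNS ran H441 (42.2 ± 1.3), H1703 (29.9 ± 1.7), H460 (20.1 ± 16) and HCC827 (5.0 ± 0.2), and neither H441 and H1703 nor H1703 and H460 could be separated. PYCR1 was 1396 ± 59 in H1703 and 1249 ± 129 in H441, which could not be separated, 978 ± 32 in H460 and 380.5 ± 41 in HCC827. ALDH18A1 ran H460 (1483 ± 95), H1703 (1192 ± 8), HCC827 (910 ± 115) and H441 (609 ± 1), each neighbour differing. Per kb of exon, with every annotated exon base of a gene counted, the highest Vehicle level was PSAT1 in H1703 (1010 normalised reads per kb). The lowest above the floor were ALDH1L2 and ASNS, at 1.1 in H441 and in HCC827. Which of these bases are in the transcripts made here was not measured, and ASNS shares 44.6% of its own with another gene. Genes therefore compare only roughly on this scale.

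PSPH stood apart in HCC827, at 1866 ± 78 normalised reads in Vehicle, against 617.5 ± 12 in H1703, 236 ± 25 in H441 and 130 ± 11 in H460. PSPH lies on chromosome 7 (chr7:56011051-56051604, minus strand, GRCh38), near EGFR. A look at its neighbours, chosen after its values were seen, found 12 tested protein-coding genes within 1500000 bases, PSPH included. All 12 were highest in HCC827 Vehicle, against 23.7% of all tested genes. EGFR itself was 27.6 times the next line, SEC61G 24.8 times, VOPP1 16.3 times, PSPH 3.02 times and NIPSNAP2 1.86 times. HCC827 is known as a line with an amplified EGFR gene; DNA was not measured here, and whether copy number has a part in the PSPH level was not tested.

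**Figure D5:**
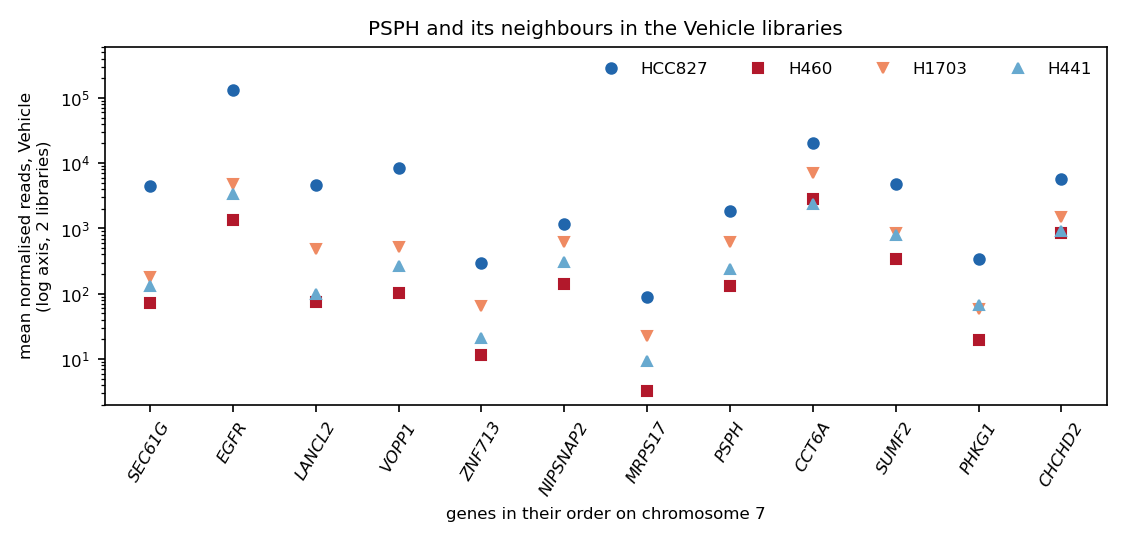
Mean normalised reads in Vehicle (log axis, 2 libraries per line) of the 12 tested protein-coding genes around PSPH, in their order on chromosome 7 (x axis), with 1 symbol per line. The HCC827 point is the top one for all 12 genes, by 1.86 times the next line for NIPSNAP2 and 27.6 times for EGFR.

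Likeness was taken over the 17794 tested genes that were above the floor in every line, which leaves out PHGDH. Those whose 4 line changes lay nearest to PSAT1 were the class I antigen gene HLA-B, with a root mean square difference of 0.214 over the 4 lines, the pseudogene PARK7P2 (0.249) and NACA2 (0.278). Those nearest to ASNS were BMP2KL (0.339), TRIB3 (0.427) and DDIT3 (0.429), the last 2 being ATF4 pathway genes. Nearest to PYCR1 were FAM86C2P (0.0704), XPOT (0.0858), the exporter of transfer RNA from the nucleus, and SYT15 (0.132). Nearest to MTHFD1L were STOML1 (0.0284), EPRS1 (0.0700) and ASB1 (0.0713), of which EPRS1 encodes a tRNA synthetase. PSPH had SYTL3 (0.119), ZMIZ2 (0.120) and FSTL1 (0.160) nearest, and PSAT1 was not among its 3.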

How the data were processed

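RNA was measured in 16 libraries of 4 lines, 2 for each treatment of each line. A NucleoSpin kit (RNA) and a SMARTer stranded total RNA kit (libraries) were used, per the labels' protocols. Per the submitters' processing notes, Trimmomatic, STAR and featureCounts were used with the hg38 (GRCh38) build; their versions, the annotation release and the strand setting are not given in the sources used here. Deposited values are variance-stabilised counts on a log2 scale, made by the authors for 28951 genes. Undoing the transformation, whose lowest value is 0.480538, gave whole reads within 0.02 for 100% of values. Of the gene IDs, 28846 were matched to GENCODE 29 for names and exons.

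Genes with a mean at least 1 above the lowest value were tested (23968, with 4983 removed) by limma 3.58.1 in R 4.3.3, with 8 group means in a single model and trended, robust empirical Bayes, with Benjamini-Hochberg adjustment over all genes tested and a threshold of 0.05. Paired enzymes were tested by an exact two-sided permutation of treatment within lines. Other steps used Python 3.11.15 with matplotlib 3.10.9, pandas 2.3.3 and numpy 2.4.6. The fit was tested on simulated data of 25634 genes. Of 50 genes changed 1.5-fold and 50 changed 2-fold, 52% and 92% were recovered in H441, and 64% and 92% in HCC827. False calls numbered 10 in H441 and 16 in HCC827. Far fewer genes were changed than passed in the real data, none of low mean, and each gene had the same Vehicle mean in every line. Recovery of genes with few reads in some lines was therefore not measured.

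The members and lists were chosen with earlier results of these data known. All 10 genes are named; from each of 7 further lists the 3 with the largest mean change over the 4 lines among those that passed it are named, plus partners of paired enzymes, ATF4 and a few genes singled out after their values were seen (those labelled in the plot of H460 against H1703, AC006030.1 and the neighbours of PSPH). For likeness, the 3 nearest genes are given; 6174 genes with at most 3 reads in both groups of any line were left out of it, a limit added after the data were seen. Alternatives were median centring, quantile normalisation, no filter, a filter at 3 above the lowest value, no trend or robust setting, only the libraries compared, a replicate block, limma voom on recovered reads, and leaving out each library. A few genes and 1 pair picked by these rules are not reported here.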

Additional observations from a re-analysis of the deposited data

Results flagged for a closer look

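Each result here is a difference between lines in the change with the combination, which passed the test of the difference itself (limma, Benjamini-Hochberg adjustment over all genes tested). Values are differences on the log2 scale, and no explanation was tested.

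Between the responsive and the non-responsive lines, the change differed for ALDH1L2 (1.83, adjusted p = 0.000181), PSAT1 (-0.85, adjusted p = 4.3e-06) and PYCR1 (-0.47, adjusted p = 0.000872). In that comparison 23.3% of all genes passed, and these class means hide unlike lines. For ALDH1L2, H1703 did not differ from HCC827 (0.82, adjusted p = 0.217) or H441 (1.00, adjusted p = 0.117). H460 did not differ from HCC827 for PSAT1 (-0.06, adjusted p = 0.869) or PYCR1 (-0.25, adjusted p = 0.270).

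Between H460 and H1703, the H460 change was greater for PSAT1 (2.495, adjusted p = 6.23e-10), PSPH (2.14, adjusted p = 1.15e-08), PHGDH (2.13, adjusted p = 6.68e-05), ALDH1L2 (1.84, adjusted p = 0.005), SHMT2 (1.53, adjusted p = 3.23e-08), PYCR1 (0.86, adjusted p = 9.29e-05) and MTHFD2 (0.82, adjusted p = 3.56e-05). All 7 kept their call in every alternative run.

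The H460 change also exceeded that of HCC827 for ALDH1L2 (2.66, adjusted p = 0.000284) and PSPH (1.08, adjusted p = 9e-05). It exceeded that of H441 for ALDH1L2 (2.84, adjusted p = 0.000113), PSPH (1.45, adjusted p = 2.31e-06), SHMT2 (0.97, adjusted p = 1.21e-05), PSAT1 (0.84, adjusted p = 0.000399), MTHFD2 (0.53, adjusted p = 0.00335) and MTHFD1L (0.45, adjusted p = 0.0265). Of these, MTHFD2 lost its call under median centring (adjusted p = 0.103), and MTHFD1L lost it there (0.295) and without 5 of the libraries of the 2 lines.

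The H1703 change was below that of HCC827 for PSAT1 (-2.55, adjusted p = 7.34e-10), PHGDH (-2.55, adjusted p = 8.63e-06), SHMT2 (-1.20, adjusted p = 7.51e-07), PYCR1 (-1.11, adjusted p = 5.55e-06), PSPH (-1.06, adjusted p = 6.64e-05) and MTHFD2 (-0.72, adjusted p = 0.000139). It was below that of H441 for PSAT1 (-1.65, adjusted p = 1.07e-07), PYCR1 (-0.70, adjusted p = 6e-04), PSPH (-0.68, adjusted p = 0.00338) and SHMT2 (-0.56, adjusted p = 0.00204).

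Between the 2 non-responsive lines, the HCC827 change was greater than that of H441 for PSAT1 (0.90, adjusted p = 0.0025) and SHMT2 (0.64, adjusted p = 0.00728).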

How the results depend on the processing

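Of 199 results for single genes, 150 kept their direction and their side of the threshold in every alternative run, and none changed sign while called. The count in H441 was the least stable: 6 genes passed, but 1 with neither trend nor robust settings and 0 when only the H441 libraries were fitted, and 3 to 6 when 1 library was left out (3 without each of H441 Combo 1, Combo 2, Vehicle 1 and Vehicle 2). For the difference between responsive and non-responsive lines, 3 passed as deposited and 5 with median centring, which lowers every such difference. For HCC827 minus H441, 2 passed, 0 with neither trend nor robust settings, and 1 to 3 when 1 library was left out (1 without HCC827 Combo 2). Beyond the centring shift, the causes were not tested. Combo and Vehicle libraries of the same replicate number hardly deviated together (correlations of deviations 0.032, 0.014, 0.027 and 0.017 in H460, H1703, HCC827 and H441). This cannot tell whether they shared a culture or batch. With a replicate block 9, 7, 7 and 5 genes passed in the lines in that order. Depth limits ASNS and ALDH1L2 outside H460.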
